A study of Homo sapiens with 33 samples.

Results

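The 9p21 locus of chromosome 9 was examined through 9 neighbouring genes, MLLT3, FOCAD, KLHL9, MTAP, CDKN2A, CDKN2B-AS1, CDKN2B, DMRTA1 and ELAVL2, chosen by name along the locus and its surroundings. They were 9 of the 58302 genes listed in the expression matrix, and all 9 passed the filter that left 17803 genes for testing. RNA-seq had been performed on 33 libraries of 6 established cell lines. H2052, H2452, H28 and MSTO-211H are malignant pleural mesothelioma (MPM) lines sensitive to palbociclib, an inhibitor of CDK4 and CDK6. The resistant lines were MPP89, an MPM line whose RB1 is mutated, and MeT-5A, mesothelial cells that had been immortalized with SV40. Cells received 0.1% DMSO (14 libraries) or 1 µM palbociclib (14 libraries) for 9 to 10 days. The 4 sensitive lines had 1 library each after a washout of the drug for 48 h, and MeT-5A had 1 untreated library. DMSO libraries numbered 2 for H2052, 3 for H2452, 3 for H28, 3 for MSTO-211H, 2 for MPP89 and 1 for MeT-5A, and the control libraries were these and the untreated MeT-5A library. Each line is a single genome, so its libraries repeat the same chromosome 9, and the differences between lines rest on 6 lines.

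CDKN2A encodes 2 unrelated proteins from alternative first exons. One is p16INK4A, which binds CDK4 and CDK6 and keeps pRb unphosphorylated, and the other is p14ARF, which restrains MDM2 and thereby stabilizes p53. CDKN2B encodes the related CDK inhibitor p15INK4B, and the long noncoding RNA CDKN2B-AS1 (ANRIL) is read from the opposite strand. MTAP, next to CDKN2A, recycles the methylthioadenosine left by polyamine synthesis into methionine, and loss of the 9p21 region is a common lesion of mesothelioma. RNA levels do not measure DNA copies. A deleted gene and a silent gene are both listed at 0, and they cannot be told apart in these data.

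The genes lie on chromosome 9 of GRCh38 (GENCODE 44 annotation). From the telomeric side, MLLT3 (ENSG00000171843, minus strand) runs from 20341669 to 20622499, FOCAD (ENSG00000188352, plus strand) from 20658309 to 20995955 and KLHL9 (ENSG00000198642, minus strand) from 21329665 to 21335404. MTAP (ENSG00000099810, plus strand) runs from 21802636 to 21937651 and CDKN2A (ENSG00000147889, minus strand) from 21967752 to 21995301. CDKN2B-AS1 (ENSG00000240498, plus strand) runs from 21994139 to 22128103 and holds CDKN2B (ENSG00000147883, minus strand, 22002903 to 22009305) within its bounds. DMRTA1 (ENSG00000176399, plus strand) runs from 22446824 to 22455740, and ELAVL2 (ENSG00000107105, minus strand) from 23690104 to 23826337. CDKN2A and CDKN2B-AS1 overlap by 1.16 kb on opposite strands. The libraries were directional, but the strand setting of the counting is not given in the sources used here, so reads of this overlap, and reads of CDKN2B within CDKN2B-AS1, may be assigned to either gene.

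Of the genes whose presence separated the lines, the promoters of CDKN2B-AS1 and ELAVL2 are left out. Those of MTAP, CDKN2A, CDKN2B and DMRTA1 are shown, at steps of the locus at which RNA appeared or disappeared. Each is the reference sequence of RefSeq (GRCh38.p14) from 250 bases before to 50 bases after the transcription start, written 5′ to 3′ on the strand of the gene, and capitals mark the GC box GGGCGG or its reverse complement CCGCCC. CDKN2A has 2 starts in that table, and the MTAP start opens the centromeric stretch that was at 0 in H2052. None of these was read from the cells.
MTAP, chr9:21802386-21802685, plus strand: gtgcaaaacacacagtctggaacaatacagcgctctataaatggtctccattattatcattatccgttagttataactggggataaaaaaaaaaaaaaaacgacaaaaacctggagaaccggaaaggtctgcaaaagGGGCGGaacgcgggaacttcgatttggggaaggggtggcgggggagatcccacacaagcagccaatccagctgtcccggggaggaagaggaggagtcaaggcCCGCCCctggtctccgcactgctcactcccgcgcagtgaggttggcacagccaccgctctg
CDKN2A, upstream start, chr9:21995275-21995574, minus strand: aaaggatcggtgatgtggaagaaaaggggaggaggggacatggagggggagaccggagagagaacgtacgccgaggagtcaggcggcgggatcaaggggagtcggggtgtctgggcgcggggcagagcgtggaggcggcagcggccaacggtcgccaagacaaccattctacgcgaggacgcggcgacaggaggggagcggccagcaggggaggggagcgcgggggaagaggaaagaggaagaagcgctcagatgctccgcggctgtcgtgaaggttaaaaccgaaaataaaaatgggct
CDKN2A, downstream start, chr9:21974808-21975107, minus strand: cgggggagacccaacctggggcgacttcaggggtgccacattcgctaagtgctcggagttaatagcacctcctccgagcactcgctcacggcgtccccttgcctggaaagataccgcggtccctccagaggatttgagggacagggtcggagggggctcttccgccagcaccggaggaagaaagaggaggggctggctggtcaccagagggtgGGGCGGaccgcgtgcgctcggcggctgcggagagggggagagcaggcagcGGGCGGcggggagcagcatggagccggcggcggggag
CDKN2B, chr9:22009256-22009555, minus strand: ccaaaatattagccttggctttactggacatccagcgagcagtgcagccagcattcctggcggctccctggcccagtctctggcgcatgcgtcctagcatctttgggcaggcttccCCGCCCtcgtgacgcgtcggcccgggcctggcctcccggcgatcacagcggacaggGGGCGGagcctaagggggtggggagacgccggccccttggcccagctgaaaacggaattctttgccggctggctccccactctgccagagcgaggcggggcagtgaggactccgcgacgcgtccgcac
DMRTA1, chr9:22446574-22446873, plus strand: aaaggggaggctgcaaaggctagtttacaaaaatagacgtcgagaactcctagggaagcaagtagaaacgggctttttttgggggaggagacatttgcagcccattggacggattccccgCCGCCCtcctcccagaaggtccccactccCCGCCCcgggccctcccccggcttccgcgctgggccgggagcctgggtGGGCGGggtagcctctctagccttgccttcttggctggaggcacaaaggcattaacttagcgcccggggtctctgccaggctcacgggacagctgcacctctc
The MTAP window held 2 GC boxes, the CDKN2A windows 0 (upstream start) and 2 (downstream start), the CDKN2B window 2 and the DMRTA1 window 3. A GC box occurred in 44.9% of the 34943 promoter windows of this length. The windows held 15 (MTAP), 28 and 26 (CDKN2A), 25 (CDKN2B) and 16 (DMRTA1) CpG dinucleotides, against a median of 14 over all windows. These letter matches describe the reference only.

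Values are counts per 20000000 reads (CP20M), which the authors had rounded up to whole numbers, so that 0 means no counted read. Every column added up to between 20007662 and 20021400 CP20M. The depth was estimated from the numbers that rounding skips, at 12780000 to 24520000 reads in 31 libraries, with 2 libraries whose estimates, 39600000 and 40980000 reads, were uncertain. A count of 0 then allows up to 3 reads, or 1.46 to 4.70 CP20M depending on the library, which covers counting error only. Of 12 mesothelial marker genes, 4 (MSTO-211H) to 9 (H2052) were at 100 CP20M or more in every control library of a line. KRT5 was at 0 in the controls of H2052, H28 and MSTO-211H, and PDPN was at 0 in those of MSTO-211H. Of 8 markers of other cell types, 0 to 2 reached 100 CP20M in every control of a line. These were CD14 in H2452, MPP89 and MeT-5A, and CLDN4 in H2452 and H28. The T cell marker CD3E was at 0 in the controls of all lines. The sum of the 8 markers was highest in the H28 controls (1440 to 1993 CP20M) and lowest in those of H2052 (70 to 92).

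RNA of the 9 genes fell into 5 patterns over the 6 lines, and all 3 genes on the telomeric side were expressed everywhere. In H2052, 6 genes (MTAP, CDKN2A, CDKN2B-AS1, CDKN2B, DMRTA1 and ELAVL2) were at 0 in all 5 libraries. H2452 had 3 genes at 0 in all 7 libraries (CDKN2A, CDKN2B and DMRTA1), and its MTAP, CDKN2B-AS1 and ELAVL2 did not exceed 14 CP20M in any library. In H28, 3 genes were at 0 in all 7 libraries (CDKN2A, CDKN2B-AS1 and CDKN2B), while MTAP and DMRTA1 on either side were expressed. MSTO-211H had 2 genes at 0 in all 7 libraries (CDKN2B and DMRTA1) and kept a low level of CDKN2A and CDKN2B-AS1. MPP89 and MeT-5A expressed all 9 genes in each of their 4 and 3 libraries. Of 12462 genes with at least 100 CP20M in every MPP89 and MeT-5A library, a set that held 8 of the 9 genes, 0.257% were at 0 throughout H2052, 0.0883% throughout H2452, 0.0963% throughout H28 and 0.0802% throughout MSTO-211H. The members of this set at 0 were 6, 3, 3 and 2 in these lines.

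**Figure D1:**
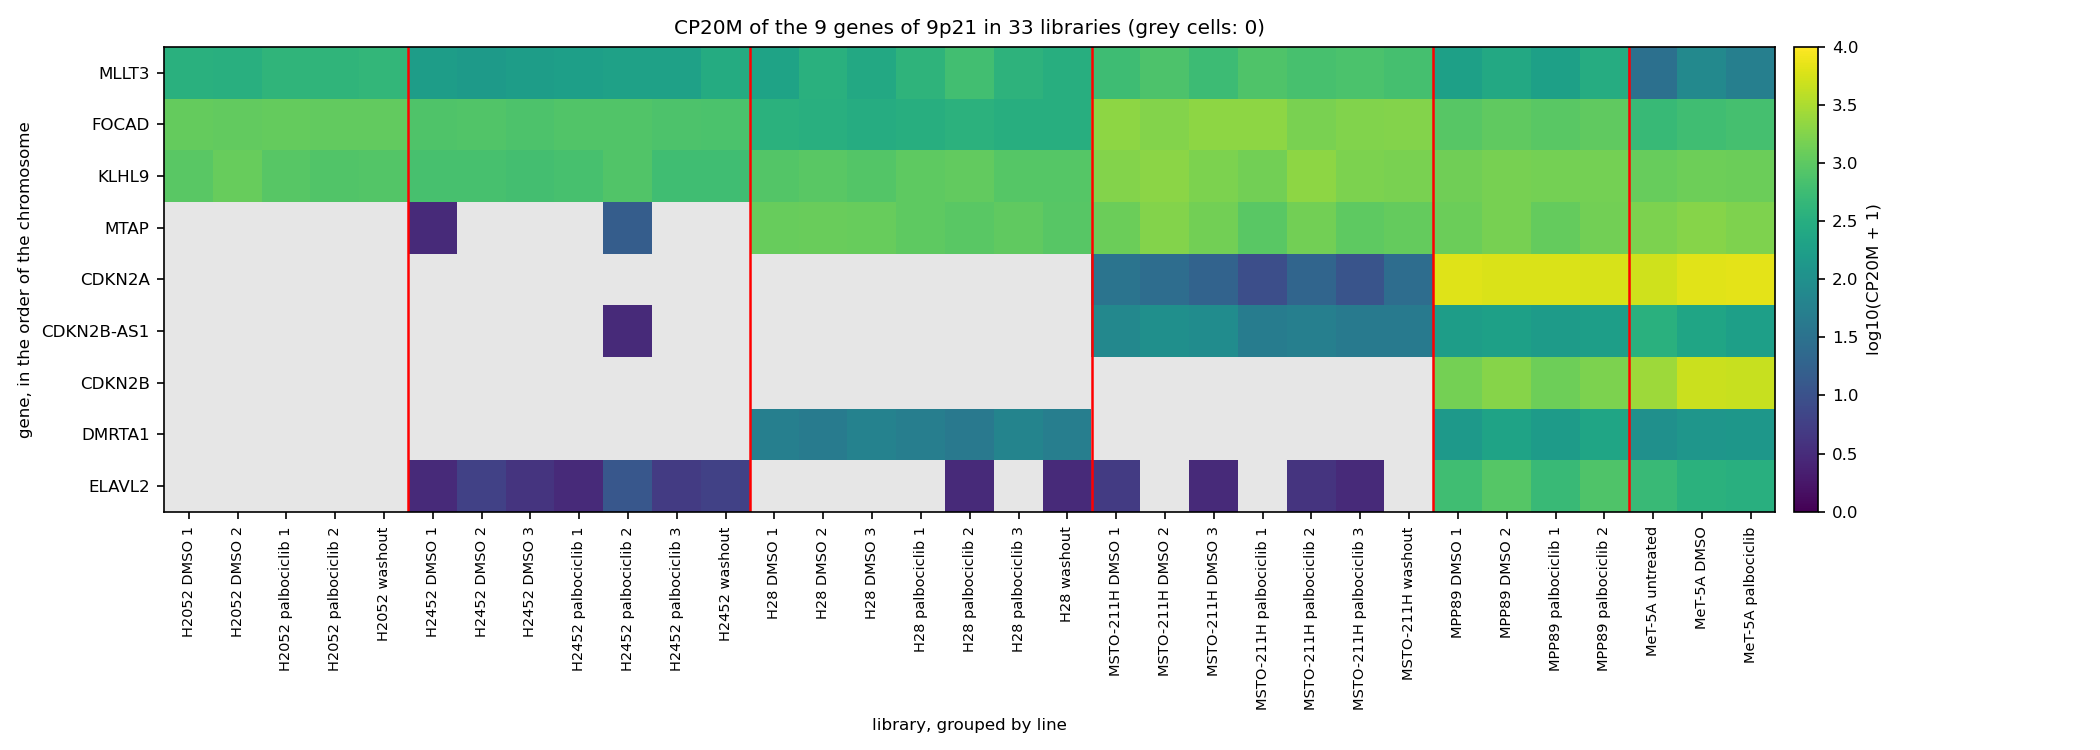
CP20M of the 9 genes (rows, in chromosome order) in each of the 33 libraries (columns, grouped by line between red lines), coloured by log10(CP20M + 1) with grey for 0. The grey block covers 6 genes in H2052, is narrower in H2452 and H28, covers CDKN2B and DMRTA1 in MSTO-211H, and is missing in MPP89 and MeT-5A.

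The CDK inhibitor genes at the centre of the locus separated the resistant from the sensitive lines. No read of CDKN2A was counted in the 19 libraries of H28, H2052 and H2452. The DMSO libraries of MSTO-211H were at 34, 26 and 18 CP20M, and this line had 8, 19 and 10 CP20M with palbociclib and 26 after washout. MPP89 had 6300 and 5967 CP20M with DMSO and 5909 and 5701 with palbociclib, and MeT-5A had 5120 untreated, 6627 with DMSO and 6913 with palbociclib. Both resistant lines were therefore far above all sensitive lines, and their control ranges overlapped each other. The MSTO-211H libraries held 0.130% to 0.554% of the mean of the MPP89 controls. Against H2052, whose controls allow at most 3.00 CP20M, the MPP89 controls were at least 2044-fold higher and the MSTO-211H controls at least 8.67-fold higher.

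CDKN2B was at 0 in all 26 libraries of the 4 sensitive lines. MPP89 had 1451 and 1880 CP20M with DMSO and 1293 and 1628 with palbociclib. MeT-5A had 2622 untreated, 4710 with DMSO and 4572 with palbociclib, so its level lay above that of MPP89 in every library. Per kb of gene model, the ratio of CDKN2A to CDKN2B was 3.27 to 4.71 in the 4 MPP89 libraries and 1.45 to 2.01 in the 3 MeT-5A libraries, and these ranges did not overlap. Against MSTO-211H, whose controls allow at most 4.02 CP20M, CDKN2B was at least 414-fold higher in MPP89 and at least 912-fold higher in MeT-5A.

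CDKN2B-AS1, the noncoding RNA of the locus, was at 0 in H2052 and H28, and in H2452 it was at 0 in 6 libraries and at 2 CP20M in palbociclib replicate 2. MSTO-211H had 72, 97 and 87 CP20M with DMSO, 46, 53 and 42 with palbociclib and 43 after washout. MPP89 had 169 and 184 with DMSO and 155 and 173 with palbociclib, and MeT-5A had 345 untreated, 225 with DMSO and 182 with palbociclib. MSTO-211H therefore stood between the other sensitive lines and the resistant lines, with control ranges that overlapped neither. The balance of the overlapping pair also differed. The ratio of CDKN2A to CDKN2B-AS1 in CP20M was 0.174 to 0.605 in the 7 MSTO-211H libraries, 32.4 to 38.1 in the 4 of MPP89 and 14.8 to 38.0 in the 3 of MeT-5A. How many of the MSTO-211H reads of CDKN2A came from the shared 1.16 kb was not tested.

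MTAP, the methionine salvage enzyme, divided the sensitive lines. It was at 0 in all 5 libraries of H2052. H2452 had 2, 0 and 0 CP20M with DMSO, 0, 14 and 0 with palbociclib and 0 after washout. By contrast, H28 had 1192, 1198 and 1188 with DMSO, 1007, 962 and 1040 with palbociclib and 902 after washout. MSTO-211H had 1274, 1816 and 1423 with DMSO, 941, 1393 and 1003 with palbociclib and 1118 after washout. MPP89 had 1285 and 1497 with DMSO and 1153 and 1428 with palbociclib, and MeT-5A had 1608 untreated, 1844 with DMSO and 1712 with palbociclib. The control ranges of MeT-5A, MSTO-211H and MPP89 overlapped, and H28 lay just below them. H28 was at least 398-fold above H2052. CDKN2A and MTAP were thus both at or near 0 in H2052 and H2452, whereas H28 had CDKN2A at 0 with MTAP at 902 to 1198 CP20M.

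On the centromeric side, DMRTA1, a gene of the DM-domain transcription factor family, was at 0 in H2052, H2452 and MSTO-211H. H28 had 52, 45 and 58 CP20M with DMSO, 50, 40 and 62 with palbociclib and 50 after washout. MPP89 had 143 and 206 with DMSO and 156 and 225 with palbociclib, and MeT-5A had 101 untreated, 125 with DMSO and 130 with palbociclib. The H28 controls were at least 17.2-fold above those of H2052 and below those of both resistant lines. ELAVL2, a neuronal RNA-binding protein of the Hu family, was at 0 in H2052 and did not exceed 2 CP20M in H28, 4 in MSTO-211H and 11 in H2452. MPP89 had 595 and 886 CP20M with DMSO and 505 and 790 with palbociclib, and MeT-5A had 522 untreated, 363 with DMSO and 328 with palbociclib. H2452 differed from the other sensitive lines in that ELAVL2 was above 0 in all 7 of its libraries, at 2 to 11 CP20M.

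The 3 genes on the telomeric side were expressed in all 33 libraries. FOCAD, which encodes focadhesin, had control means of 2023 ± 158 CP20M (SD, n = 3) in MSTO-211H, 1113 ± 14.8 (n = 2) in H2052, 969 ± 101 (n = 2) in MPP89, 784 ± 25.5 (n = 3) in H2452, 546 ± 66.5 (n = 2) in MeT-5A and 331 ± 27.0 (n = 3) in H28. No neighbours in this order overlapped in their control libraries. KLHL9 is a substrate adaptor of CUL3 ubiquitin ligases. Among protein-coding genes past the filter, it was the last before the stretch at 0 in H2052. KLHL9 had means of 1821 ± 177 in MSTO-211H, 1438 ± 82.0 in MPP89, 1257 ± 89.8 in MeT-5A, 1047 ± 155 in H2052, 880 ± 55.7 in H28 and 676 ± 28.8 in H2452, with the same numbers of libraries. Its control values overlapped only between H2052 and H28. MLLT3, a reader of acylated histones in the super elongation complex, had means of 635 ± 118 in MSTO-211H, 342 ± 10.6 in H2052, 268 ± 65.7 in H28, 225 ± 54.4 in MPP89, 162 ± 9.45 in H2452 and 51.5 ± 31.8 in MeT-5A. H28 overlapped both of its neighbours in the MLLT3 order. All 3 genes were highest in MSTO-211H.

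**Figure D2:**
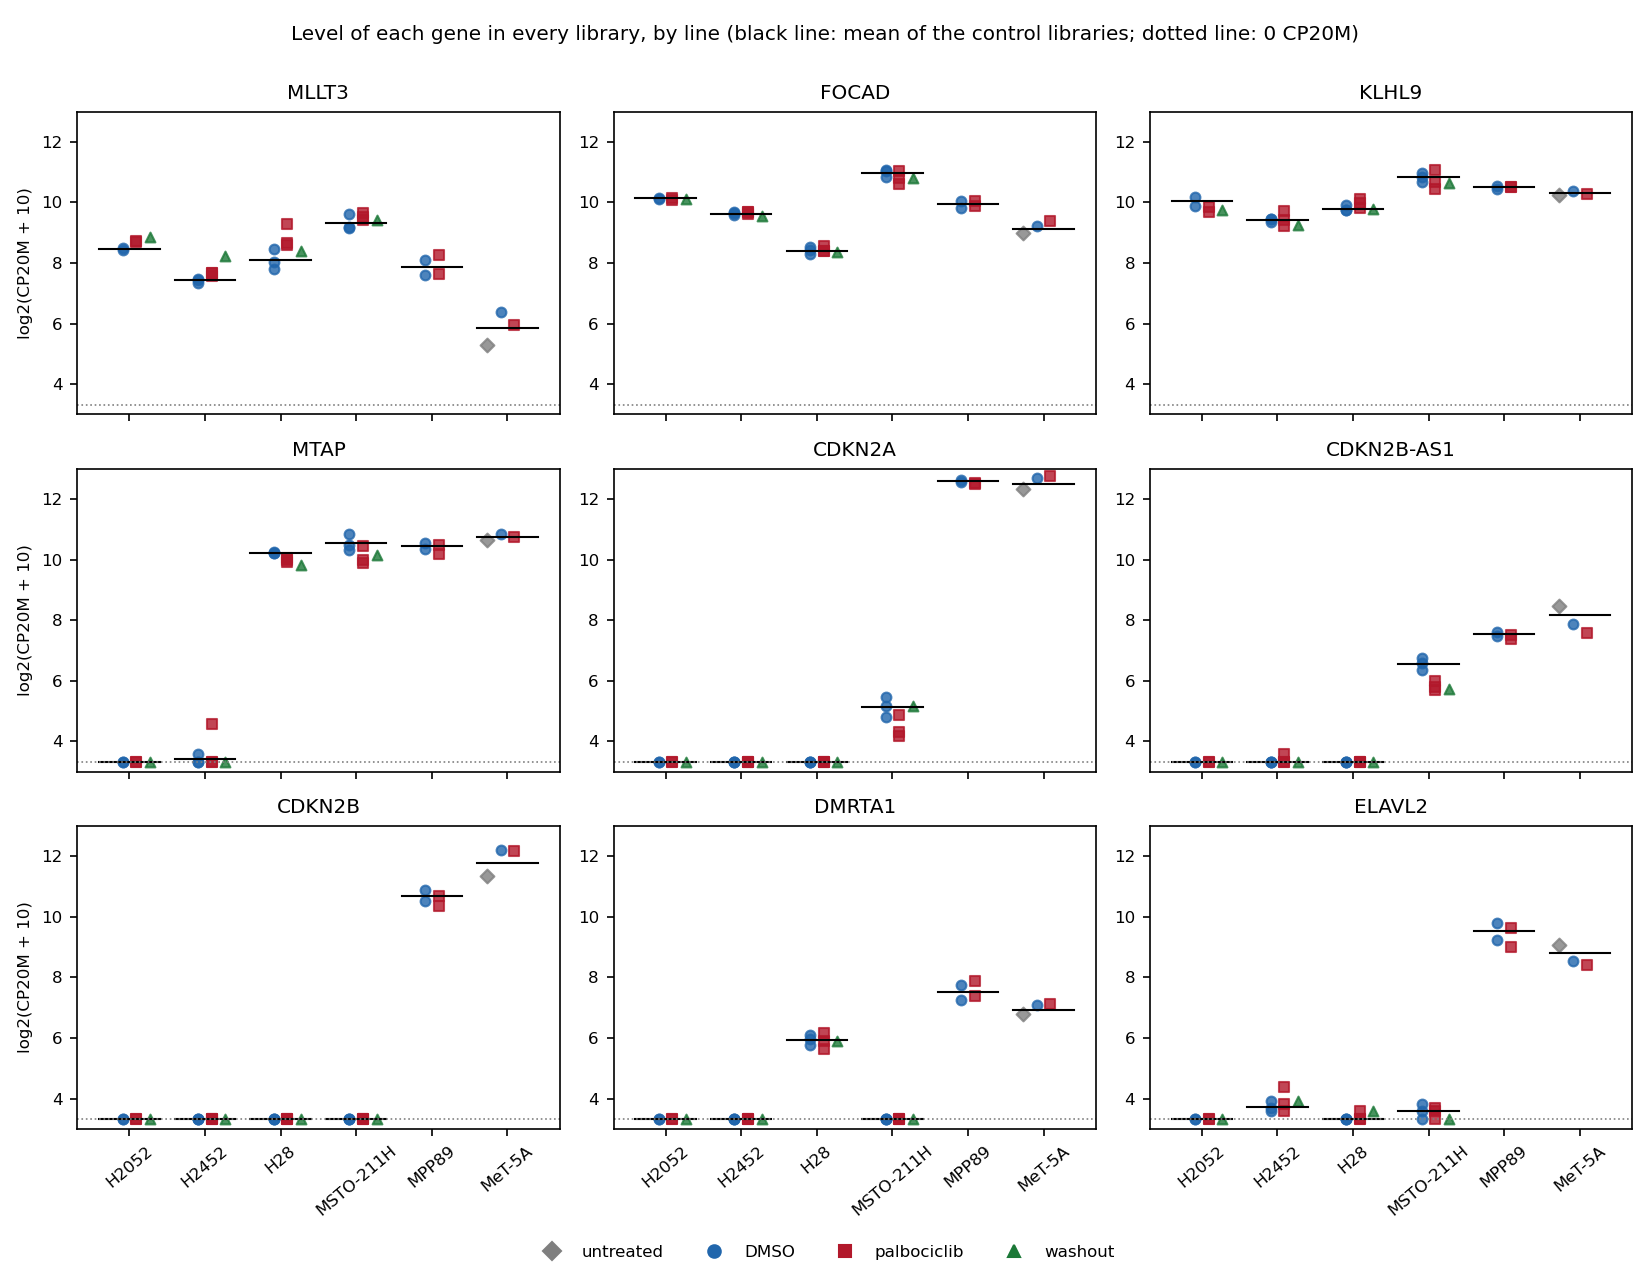
Level of each gene as log2(CP20M + 10) (y axis) in every library of each line (x axis), with symbols for the treatment and a black line for the mean of the control libraries; the dotted line is the value of a gene at 0. CDKN2A and CDKN2B of MPP89 and MeT-5A stand far above the dotted line, MTAP is on or near it only in H2052 and H2452, and FOCAD and KLHL9 are above it in all 6 lines.

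Differences among lines were tested over the 15 control libraries with limma. All 9 genes passed the F test, with Benjamini-Hochberg FDR (limma) of 1.89e-06 or lower, beside 96.3% of all genes tested, so that passing sets the locus apart from few genes. CDKN2A, CDKN2B-AS1, CDKN2B, DMRTA1 and ELAVL2 passed the filter of 100 CP20M only through libraries of MPP89 and MeT-5A, so that their passing this test and their higher level in those lines are a description. The spread between the highest and lowest line means, on the log2(CP20M + 10) scale, was 9.26 for CDKN2A, 8.46 for CDKN2B, 7.44 for MTAP, 6.20 for ELAVL2, 4.85 for CDKN2B-AS1, 4.18 for DMRTA1, 3.48 for MLLT3, 2.58 for FOCAD and 1.41 for KLHL9. Lines at 0 add no spread of their own to this fit, and the fold of a gene at 0 depends on the pseudocount of 10. The replicates of a line are described in the study as independent experiments, and the p-values measure the spread between them within each line. The controls of MeT-5A are 1 untreated and 1 DMSO library. Their spread, and the SD given above for that line, therefore also hold any difference between these conditions.

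Each line was also set against the mean of the other 5. Lines at 0 lower that mean, so a gene called higher need not be at its highest in that line. In the sensitive lines, the lower calls of CDKN2A, CDKN2B-AS1, CDKN2B, DMRTA1 and ELAVL2 are a description. These genes passed the filter only through MPP89 and MeT-5A. In H2052, 6 genes were lower and MLLT3 was higher (log2 difference 0.75), beside 22.9% of all genes called lower and 20% higher. The MLLT3 call was lost without either H2052 DMSO replicate (FDR by limma 0.0931 and 0.112). The MTAP difference of H2052 was -5.76 ± 0.14 (SE, FDR by limma 5.71e-12). H2452 had 7 genes lower and none higher, beside 29.7% and 17.6%. They included MTAP (-5.65) and KLHL9 (-0.87), 1 of the genes that was expressed in every line. H28 had 5 genes lower and 2 higher, beside 30.0% and 19.4%. The higher genes were MTAP (2.53) and DMRTA1 (1.06), which enclose the stretch at 0, the call of DMRTA1 being lost with a pseudocount of 50 (0.25). Their H28 control means, 1193 and 51.7 CP20M, were still below those of MPP89 (1391 and 174.5) and MeT-5A (1726 and 113). FOCAD was among the lower ones (-1.55).

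MSTO-211H had 4 genes lower and 5 higher than the other lines, beside 23.5% and 21.1% of all genes. MTAP (2.91), MLLT3 (1.79), FOCAD (1.54), CDKN2B-AS1 (1.43) and KLHL9 (0.82) were higher, and CDKN2A (-1.87), CDKN2B, DMRTA1 and ELAVL2 were lower. The call of CDKN2A in MSTO-211H was lost with a pseudocount of 1 (-0.31, FDR by limma 0.254), and that of CDKN2B-AS1 with a pseudocount of 50. Both resistant lines had the same 6 genes higher, MTAP, CDKN2A, CDKN2B-AS1, CDKN2B, DMRTA1 and ELAVL2, beside 23.9% (MPP89) and 29.7% (MeT-5A) of all genes. Of these 6, MTAP alone had passed the filter through other lines too. The CDKN2A differences were 7.06 ± 0.17 in MPP89 and 6.97 ± 0.17 in MeT-5A. MeT-5A had MLLT3 (-2.39) and FOCAD (-0.70) lower, beside 16.0% of all genes, though FOCAD fell under the 1.5-fold limit without the untreated library (-0.58), and MPP89 had none of the 9 lower, beside 14.3%. These contrasts share the same libraries and are not independent of each other.

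With the line as the unit, a choice of 2 of 6 lines has 15 outcomes, and a two-sided exact permutation test of the classes cannot give a p below 0.0667, which is above 0.05. The 5 genes that passed the filter only through the resistant lines are given as a description, with no test. Their differences of line means, resistant minus sensitive on the log2 scale, were 7.92 for CDKN2B, 5.68 for ELAVL2, 3.72 for CDKN2B-AS1 and 3.24 for DMRTA1, with CDKN2A above all of them. MTAP differed by 3.73 (exact permutation p = 0.2), since H28 and MSTO-211H expressed it. MLLT3 differed by -1.48 (exact permutation p = 0.2), FOCAD by -0.27 (p = 0.8 in the same exact test) and KLHL9 by 0.38 (exact p = 0.467), and all 3 overlapped between the classes. For MLLT3 the control mean of MPP89 lay above that of H2452, and MeT-5A was the lowest line.

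The extent of the stretch at 0 was read from all protein-coding genes around the locus with at least 100 CP20M in at least 1 library. In H2052, 12 consecutive genes from MTAP to C9orf72 (21802636 to 27573866, 5771 kb) were at 0 in every library. The last expressed gene before it was KLHL9, which ends at 21335404, and the first after it was ACO1, which starts at 32384603 and had 3382 to 4353 CP20M. These enclose 11049 kb, in which no other protein-coding gene passed the filter. Within it, the noncoding gene MIR31HG, which ends at 21559891 before MTAP, was at 91 to 110 CP20M in H2052. H2452 had the shorter run from CDKN2A to DMRTA1 (488 kb) at 0. With at most 20 CP20M in place of 0, a limit chosen after seeing the data, that run extended from MTAP to ELAVL2 (2024 kb), and TUSC1 after it had 126 to 200 CP20M.

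H28 had the shortest run, CDKN2A and CDKN2B (41.6 kb), between the end of MTAP and the start of DMRTA1, which lie 509 kb apart. In MSTO-211H the run began at CDKN2B and ended at DMRTA1 (453 kb), or at ELAVL2 (1823 kb) with the limit of 20 CP20M, and TUSC1 after it had 52 to 104 CP20M. Each run was extended outward from CDKN2B, so all 4 held it by construction. Those of H2052, H2452 and H28 also held CDKN2A. TUSC1 was at 8 to 29 CP20M in H28, against 690 to 754 in MPP89 and 538 to 592 in MeT-5A, while DMRTA1, nearer to the run, was expressed in H28. PLAA, within the stretch of H2052, was at 5 to 18 CP20M in MSTO-211H and at 1732 to 2008 in MPP89.

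**Figure D3:**
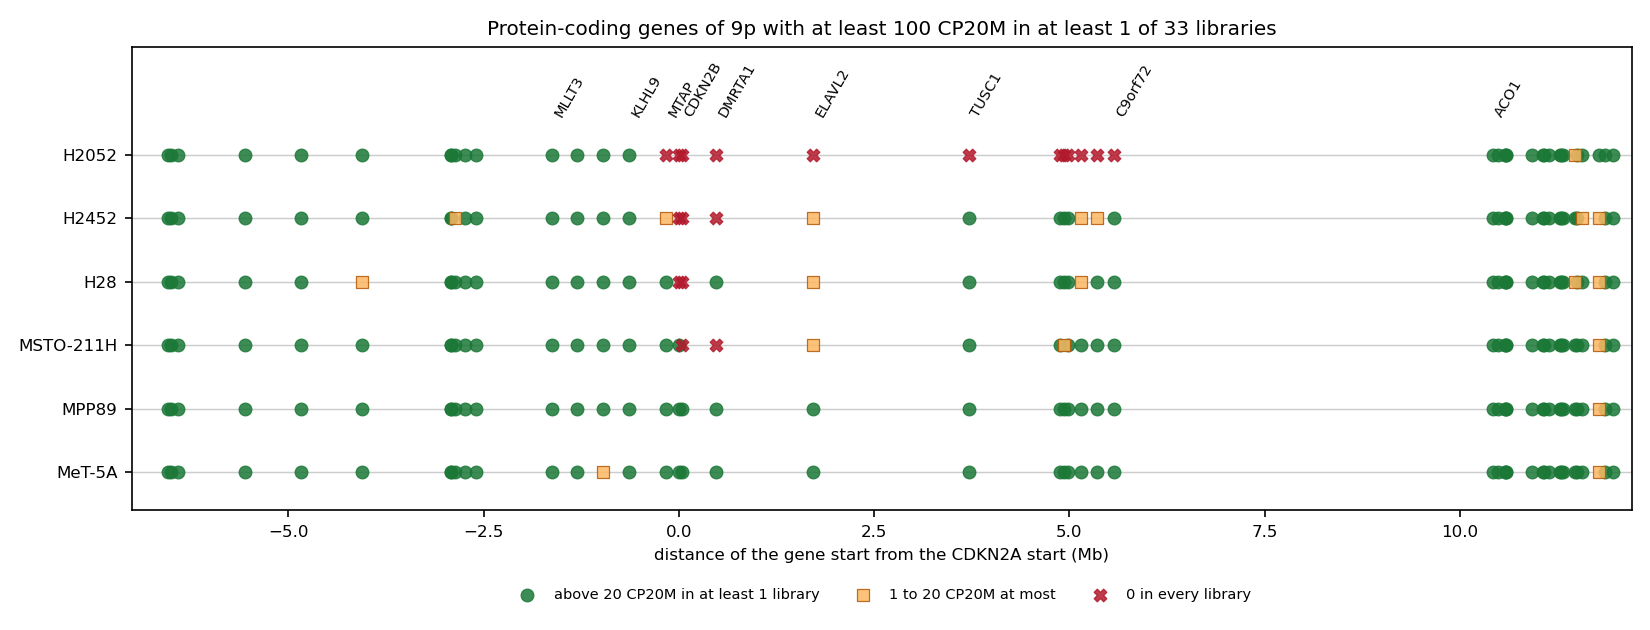
Protein-coding genes of 9p that reached 100 CP20M in 1 or more of the 33 libraries, placed by the distance of the gene start from the CDKN2A start in Mb (x axis) for each line (y axis), as a cross where the gene was at 0 in every library, a square where it did not exceed 20 CP20M and a circle otherwise. Crosses run over 12 genes in H2052, 3 in H2452 and 2 each in H28 and MSTO-211H, while squares also occur far from the locus, in MPP89 and MeT-5A as well.

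Of 166 genes listed between 15341669 and 28826337, a window of 5 Mb on either side of the 9 genes, 33 reached 100 CP20M in at least 1 library. In every library of the line, 16 of these 33 were at 0 in H2052, 4 in H2452, 4 in H28, 2 in MSTO-211H and 0 in both MPP89 and MeT-5A. Noncoding genes of the window also differed between the lines. AL359922.1, a long noncoding RNA gene that starts with MTAP and reaches to 22029594 past CDKN2B, was at 170 to 212 CP20M in H28 and 240 to 352 in MSTO-211H, at 0 in H2052 and at 0 to 4 in H2452. Its count covers the whole gene and does not place the reads on either side of CDKN2A. AL449423.1 was at 0 in H2052, H2452 and H28, at 0 to 7 in MSTO-211H, 26 to 42 in MPP89 and 51 to 128 in MeT-5A.

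MIR31HG, the host gene of miR-31 between KLHL9 and MTAP, separated H2052 from H2452 on the telomeric side. It had 91 to 110 CP20M in H2052, 0 to 3 in H2452, 0 to 7 in H28, 55 to 127 in MSTO-211H, 87 to 119 in MPP89 and 102 to 160 in MeT-5A. The host gene was thus present in H2052, whose MTAP was at 0, and near 0 in H28, whose MTAP was expressed. The mature microRNA that it carries is shown with its seed, bases 2 to 8, in capitals (RefSeq, GRCh38.p14, chr9:21512158-21512178, minus strand). The libraries measured the host gene and not the microRNA.
hsa-miR-31-5p: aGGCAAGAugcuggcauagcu

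A single H2452 library had the highest values of several of these genes in that line. Palbociclib replicate 2 had MTAP at 14, ELAVL2 at 11, AL359922.1 at 4, AL359922.2 at 4 and CDKN2B-AS1 at 2 CP20M, while CDKN2A and CDKN2B were at 0. Of 14 genes that were at 0 in the other 6 H2452 libraries and expressed throughout MPP89 and MeT-5A, 3 were above 0 in it, and all 3 belonged to 9p21. CDKN2A, CDKN2B and DMRTA1 of 9p21 were also among the 14 and stayed at 0. Reads of genes at 0 in the other libraries of a line also occurred elsewhere, at 1 of 12 such genes in H2452 DMSO replicate 2, 2 of 13 after washout of H2452 and 13 of 25 in H28 DMSO replicate 3, none of them on this list of 9 genes. Without this library 4 of the 9 genes were at 0 in H2452 instead of 3, CDKN2B-AS1 being the additional gene, and MTAP remained above 0 through the 2 CP20M of DMSO replicate 1. The source of these reads was not tested.

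The response of the 9 genes to palbociclib was compared within pairs of DMSO and palbociclib libraries of the same experiment. Over the 11 pairs of the sensitive lines, none of the 9 was called at a fold change above 1.5 and an FDR under 0.05, beside 15% of all genes. MLLT3 came nearest, with 349 and 334 CP20M (DMSO) against 412 and 408 (palbociclib) in H2052, 169, 151 and 165 against 180, 193 and 194 in H2452, 211, 340 and 254 against 398, 613 and 378 in H28, and 577, 771 and 558 against 794, 679 and 729 in MSTO-211H. The values were higher in 10 of 11 pairs, and the log2 difference was 0.37 ± 0.09 (SE, FDR by limma 0.00547), under the 1.5-fold limit. The median of all genes was -0.11 in this fit and moved by 0.17 with median-of-ratios scaling. MTAP (-0.10 ± 0.14, FDR by limma 0.59), CDKN2A (-0.19, FDR 0.21) and CDKN2B-AS1 (-0.18, FDR 0.224) did not pass, and these averages include lines at 0. FOCAD (-0.03), KLHL9 (-0.02) and DMRTA1 (-0.01) were near 0 and took the opposite sign with median-of-ratios scaling. ELAVL2 was at 0.07, and CDKN2B was at 0 throughout.

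Over the 3 pairs of the resistant lines the log2 differences of the 9 genes ran from -0.18 to 0.10, and the lowest FDR (limma) was 0.689. No gene of the 17803 was called in that fit (0%), although 1258 had an unadjusted p under 0.05. The difference between the responses of sensitive and resistant lines was called for 6.75% of all genes and for none of the 9, with MLLT3 at 0.46 ± 0.20 (FDR by limma 0.16). After washout the 4 sensitive lines differed from palbociclib at 1.40% of all genes and at none of the 9, with CDKN2A at 0.21 (FDR by limma 0.661). Against DMSO, washout changed 5.76% of all genes and none of the 9, with MLLT3 at 0.45 ± 0.13 (FDR by limma 0.0569). Since the same DMSO or palbociclib libraries enter several of these contrasts, they are not independent.

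Fits of each line on its own, added after seeing the data, gave 1 call. In H28, MLLT3 rose by 0.76 ± 0.11 on the log2(CP20M + 10) scale (SE, FDR by limma 0.0314), with pairs from 0.56 to 0.88, all 3 higher, beside 5.89% of all genes called higher. Without any 1 of the 3 pairs it was no longer called (FDR 0.0784 to 0.218), and no gene of the 17803 was. In MSTO-211H, CDKN2B-AS1 was at -0.74 ± 0.16 (FDR by limma 0.0525) and CDKN2A at -0.70 ± 0.24 (FDR 0.112), lower in 3 of 3 pairs each, beside 7.94% of all genes called lower. Neither passed in the line on its own. Both passed when the spread was shared over the 14 pairs (FDR by limma 0.000388 and 0.00405, beside 15.5% of all genes called lower), a spread that pairs at 0 make small. For CDKN2B-AS1 the 3 palbociclib values, 42 to 53 CP20M, all lay below the 3 DMSO values, 72 to 97, and the washout value of 43 lay with palbociclib. In an F test of the response among the 6 lines, also added later, 47.4% of all genes passed, MLLT3 and CDKN2B-AS1 among them (FDR by limma 0.0231 and 0.0166).

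MTAP was lower with palbociclib in all 9 pairs of the 4 lines that expressed it. The log2 differences were -0.25 ± 0.06 in H28 (SE, FDR by limma 0.0638) and -0.44 ± 0.07 in MSTO-211H (FDR 0.0398), the latter under the 1.5-fold limit. In H28 the DMSO range of 1188 to 1198 CP20M did not overlap the palbociclib range of 962 to 1040, and in MSTO-211H the ranges overlapped. The pairs of MPP89 had -0.16 and -0.07, and the pair of MeT-5A had -0.11. Median-of-ratios scaling moved the median of all genes by 0.10 in H28 and 0.14 in MSTO-211H, and MTAP was then at -0.11 in H28 (FDR by limma 0.362) and -0.27 in MSTO-211H (FDR 0.13). Without any 1 pair of MSTO-211H the FDR of MTAP was 0.0988 to 0.253.

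**Figure D4:**
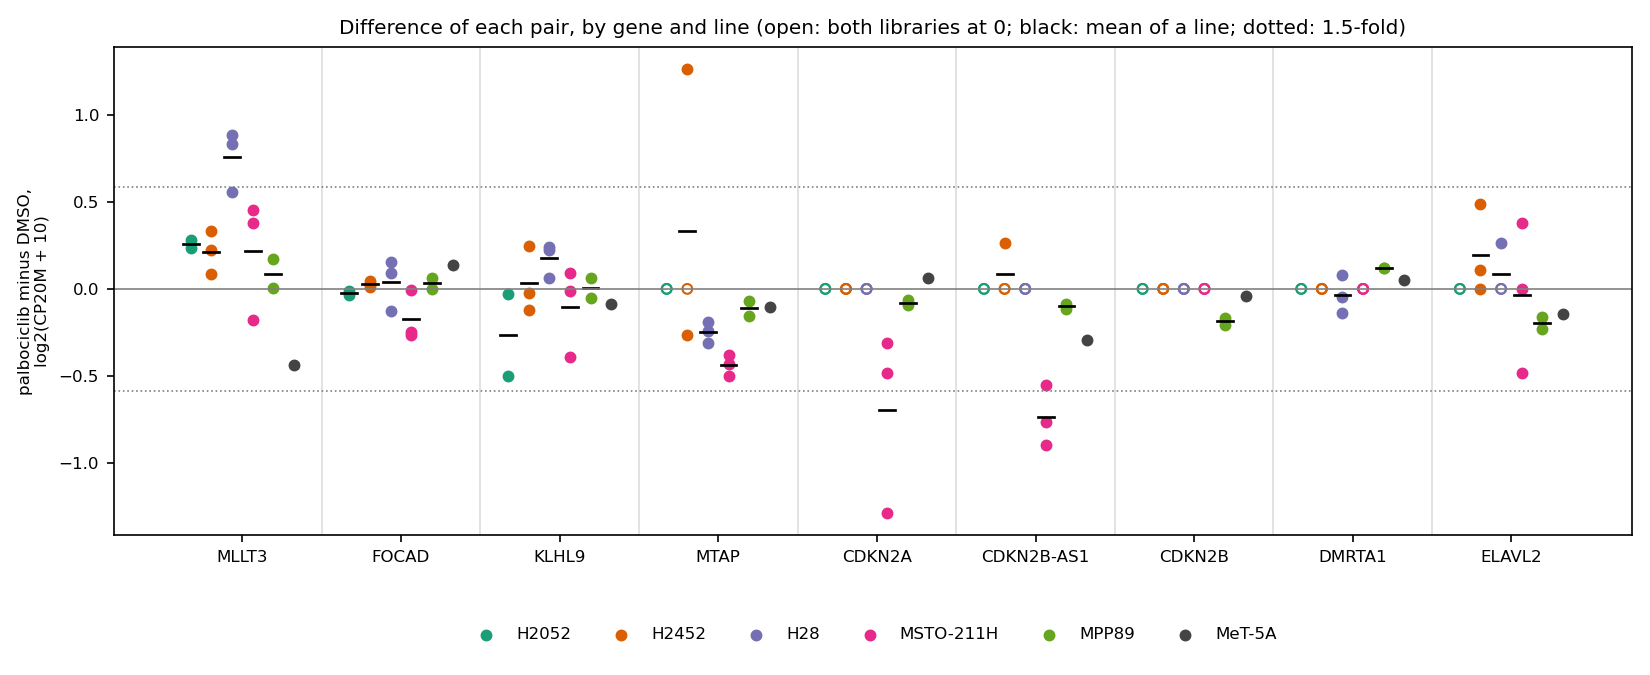
Palbociclib minus DMSO of each pair on the log2(CP20M + 10) scale (y axis) for the 9 genes (x axis), coloured by line, with open circles where both libraries were at 0, a black line for the mean of a line and dotted lines at 1.5-fold. The 3 MLLT3 pairs of H28 lie between 0.56 and 0.88, and the CDKN2A and CDKN2B-AS1 pairs of MSTO-211H lie below 0.

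The genes that act with the 9p21 proteins were taken from lists chosen with earlier results of these data known. Over the sensitive pairs, 5.58% of all genes were called higher and 9.37% lower. The median of all genes in this fit moved by 0.17 with median-of-ratios scaling. The list calls were not repeated with that scaling, so whether those near the 1.5-fold limit hold under it was not tested. Of 13 genes around INK4, CDK4/6 and RB, 2 rose, the D-type cyclins CCND1 (log2 difference 1.19) and CCND2 (2.27). In the same list 4 fell, the INK4 gene CDKN2C (-2.51), the S-phase factors E2F2 (-2.39) and E2F1 (-1.02) and the pocket protein gene RBL1 (-1.14), and the list median was -0.33 beside -0.11 over all genes. CDKN2C, whose product p18INK4C binds the same kinases as p16INK4A, fell in the lines in which CDKN2A and CDKN2B were at or near 0. Those are also the sensitive lines, so the state of the locus and the sensitivity to the drug cannot be told apart here. Of 10 genes around ARF, MDM2 and p53, 4 fell and none rose. They were BBC3 (-0.85) and BAX (-0.64), which promote apoptosis, the p53 inhibitor MDM4 (-0.67) and NPM1 (-0.60), a nucleolar partner of ARF, and the list median was -0.35. The sensitive lines did not share this evenly. By line, with the spread shared over all pairs, 7 of the 10 genes fell in H2052 and 4 in MSTO-211H. None fell in H28 or H2452, and ZMAT3 rose in H2452. Of 17 genes of methionine salvage, MAT2A and PRMT5, 2 fell, the spermine synthase gene SMS (-0.70) and KYAT1 (-0.73), and the median was -0.43. By line in the same way, 10 of the 17 fell in H2052, 5 in MSTO-211H, 4 in H2452 and 1 in H28, and SRM rose in MSTO-211H. None of 13, 10 and 17 genes was called in the resistant pairs. All 16 type I interferon genes of 9p21 were listed, and 0 of them reached 100 CP20M in any library.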

How the data were processed

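RNA of 33 libraries of 6 cell lines was measured by paired-end RNA-seq. Per the submitters' processing notes, reads were trimmed with Trimmomatic 0.36, mapped to GRCh38 with STAR 2.5.3 and counted per gene with HTSeq 0.9.1. The authors deposited a normalized score, counts per 20000000 reads (CP20M), rounded up to whole numbers, so a count model was not used. The authors paired treated and control samples within each experiment. Log2(CP20M + 10) was analysed with lmFit and trended eBayes of limma 3.58.1 (R 4.3.3), on genes that reached 100 CP20M in 1 library or more. The experiment was a block in the palbociclib fits, and the line was a block in the washout fits. Calls needed a fold change above 1.5 and a Benjamini-Hochberg FDR under 0.05. The pairing was checked by correlating the deviations of same-numbered libraries from their group means across genes, which gave r = 0.18 to 0.67 over the 9 pairs of lines with 3 pairs. In lines with 2 pairs both give a single value, 0.34 in H2052 and 0.78 in MPP89. At most 4.33% of tested genes had equal values in replicate libraries, so none was counted as a duplicate.

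The members, lists and tests were chosen with earlier results of these data known. Fits of single lines, the F test of the response among lines, runs with at most 20 CP20M, the window extended to 40000000 on chromosome 9 and the count for H2452 without palbociclib replicate 2 were added after seeing the data. Named genes are the 9 members, genes of the window at 0 in every library of a line and the measured genes nearest to such runs, called genes of the fixed lists, markers at 0, and the genes most like MTAP and CDKN2A. Of those at 0, the few described in detail, and HACD4, which the rule does not name, were picked after their values were seen. The functions were tested on simulated data. Alternatives were pseudocounts of 1 and 50, no filter, median-of-ratios scaling, no replicate block, and leaving out each replicate or line. Python 3.11.15, NumPy 2.4.6, pandas 2.3.3 and matplotlib 3.10.9 were used. GENCODE 44 is a different annotation release from that of the authors.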

Additional observations from a re-analysis of the deposited data

Results flagged for a closer look

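The response to palbociclib differed among the 6 lines for 2 of the 9 genes, by an F test of that difference over the 14 pairs, added after seeing the data and passed by 47.4% of all genes. For MLLT3 the FDR (limma) was 0.0231. Its mean log2 differences were 0.76 in H28, 0.26 in H2052, 0.22 in MSTO-211H, 0.21 in H2452, 0.09 in the 2 pairs of MPP89 and -0.44 in the single pair of MeT-5A, where the DMSO library had 74 CP20M and the palbociclib library 52. The untreated MeT-5A library, at 29 CP20M, lay below both.

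For CDKN2B-AS1 the FDR (limma) was 0.0166. The gene was at -0.74 in MSTO-211H, at -0.10 in MPP89, at -0.29 in the single pair of MeT-5A and at 0.09 in H2452, where only palbociclib replicate 2 had reads (2 CP20M), and it was at 0 in both libraries of every pair of H2052 and H28. The call was lost with a pseudocount of 1 (FDR by limma 0.244) and with median-of-ratios scaling (FDR 0.0718). The part that the lines at 0, which add no spread, had in this value was not tested.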

How the results depend on the processing

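Over 117 results and 1780 alternatives, 1719 counted as unchanged. For this, a tested log2 difference had to keep its direction and its side of the threshold. A level difference between classes had to keep its direction, and a count had to stay within 1.5-fold. Direction turned in 14 alternatives. All 14 were log2 differences with palbociclib of genes that were not called. For a line against the others, the 117 results held only genes called in the main fit. Small uncalled differences, such as MLLT3 in MPP89 (0.03) and FOCAD in H2452 (-0.08), were not among them. Washout differences of single genes were held only for CDKN2A against palbociclib and MLLT3 against DMSO. The difference in response between classes was held only for MLLT3. The unchanged count, and where direction turned, depend on this choice. With median-of-ratios scaling over the sensitive lines, FOCAD was at 0.16 (FDR by limma 0.0493), KLHL9 at 0.18 (FDR 0.0346) and DMRTA1 at 0.0221. With a pseudocount of 1 MTAP was at 0.0225. Without MSTO-211H, FOCAD was at 0.0196, KLHL9 at 0.0136, MTAP at 0.0319 and CDKN2B-AS1 at 0.0329, and without H2052 KLHL9 was at 0.0357. Leaving out 1 pair gave -0.0456 to 0.0292 for KLHL9 and -0.0185 to 0.00352 for DMRTA1 in the sensitive lines. In the resistant lines it gave -0.22 to 0.0883 for MLLT3 and -0.0704 to 0.00365 for KLHL9, whose signs turned without MeT-5A.

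Counts over all genes moved more. With the experiment block left out and no line term in its place, 939 genes were called over the sensitive pairs instead of 2663. Without the line block, the count was 0 for washout against palbociclib instead of 250 and 0 for washout against DMSO instead of 1026. In these 0 counts, 342 and 377 genes had an unadjusted p under 0.05 by limma. None of the 9 genes was called with or without these blocks. A pseudocount of 50 left 1687 genes over the sensitive pairs. For washout against palbociclib the count was 0 without a filter and without H2052, H2452 or MSTO-211H, where limma gave 3771, 1502, 1343 and 1997 genes with an unadjusted p under 0.05, and it was 104 without H28 and 141 with median-of-ratios scaling. For washout against DMSO it was 401 without a filter, 232 without H2052, 645 without H2452 and 245 without MSTO-211H. The difference between classes gave 172 to 1435 genes on leaving out 1 pair, instead of 1202, with the counts of 172 to 234 without MeT-5A or either MPP89 pair. Without a filter 26118 genes differed among lines instead of 17147. The lines on their own called 2354 genes in H28 and 2464 in MSTO-211H. Without any 1 pair these counts were 0 in both lines by limma, where 3385 to 7029 genes had an unadjusted p under 0.05, and MSTO-211H had 4657 with the spread shared over 14 pairs. The fits of H2052 and MPP89 without 1 pair were not run, since they leave no residual degrees of freedom.

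With at most 20 CP20M in place of 0, 6 of the 9 genes were absent in H2452 instead of 3. With a filter of 20 CP20M, window genes at 0 numbered 27 in H2052, 14 in H2452, 11 in H28, 5 in MSTO-211H, 1 in MPP89 and 2 in MeT-5A. Against the other lines, MLLT3 in H2052 was no longer called with a pseudocount of 50, without a filter or without either DMSO replicate (FDR by limma 0.0159 to 0.112), DMRTA1 in H28 and CDKN2B-AS1 in MSTO-211H were no longer called with a pseudocount of 50, and FOCAD in MeT-5A fell under 1.5-fold (-0.58) without the untreated library. Depth limits a gene at 0 to the 3 reads given above. Other causes of these changes were not tested.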

Other observations

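Among the 17803 tested genes, the patterns over the 33 libraries most like those of MTAP and CDKN2A are given as a description, on the log2(CP20M + 10) scale. Libraries of a line share the genome of that line, so these correlations rest on 6 lines. MTAP was most like AL359922.2 (r = 0.997) and AL359922.1 (r = 0.996), noncoding genes that overlap it, and next like DHTKD1 (r = 0.951) on chromosome 10, a gene of lysine breakdown. CDKN2A was most like HNMT (r = 0.987) on chromosome 2, which inactivates histamine, and ZYG11A (r = 0.987) on chromosome 1, ahead of its neighbour CDKN2B (r = 0.981).

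Some other genes around the locus also varied between the lines. HACD4, between FOCAD and KLHL9, was at 12 to 17 CP20M in MeT-5A and 7 to 40 in H28, against 479 to 835 in H2052. CAAP1, which was at 0 in H2052, was at 97 to 183 CP20M in MSTO-211H and 203 to 573 in the other lines, and C9orf72, the last gene of the H2052 run, was at 59 to 335 CP20M in the 5 other lines.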
